A study of Mus musculus with 6 samples.

Results

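Slit proteins, their Robo receptors and the srGAP proteins that act under the receptors were read in left and right cervical motoneurons of mouse embryos. The members were all probe sets that the array annotation gives to exactly 1 of 9 genes (Robo1, Robo2, Robo3, Slit1, Slit2, Slit3, Srgap1, Srgap2 and Srgap3), which made 20 probe sets of 45037 once array controls had been set aside, and 9 of 18193 genes with a probe set of their own. The GFP-positive motoneuron region was taken by laser capture from the right and left cervical spinal cord of 3 HB9::GFP embryos of 1 litter at E11.5, with both sides cut from the same sections, so that each embryo gave 1 right and 1 left pool. All 6 pools carried the transgene, in which GFP is expressed from the promoter of the motoneuron gene HB9 (Mnx1), and no pool was treated or lacked a gene. The captured piece holds whatever lies among the GFP-positive cells, and fewer cells of a type cannot be told apart here from less RNA per cell.

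Slits are large secreted proteins that most often repel growing axons, and Robos are the single-pass receptors of the immunoglobulin superfamily that bind them. The receptor has no catalytic domain of its own and acts through adaptors, among them the srGAPs. In the spinal cord, Slits from the floor plate keep axons away from the midline, motoneurons themselves also make Slits, and in the mouse Slits and Robos take part in holding motor axons together in a bundle.

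Signals are the authors' MAS5 values on a linear scale, with 1 value per probe set and array. Over all 45037 probe sets the median signal of an array lay between 99.6 and 118. Only the 21853 probe sets with a signal of 200 or more in some pool, the limit of the study's methods, were tested. Of the 20 member probe sets 17 passed, for 7 of the 9 genes. The 3 that did not were the only probe set of Robo2 and both of Robo3. The ratio log2(R/L) was formed within each embryo, and right and left were compared with limma, with embryo as a block and p-values adjusted over all tested probe sets. A fold rule taken from the methods was used beside it: one direction in each of the 3 embryos, with a mean log2(R/L) past 0.58 (1.5-fold) and 2 or more single embryos past it too. Probe sets differ in how well they bind their target, so levels of different probe sets are not compared as amounts of transcript, and "brightest" only tells which probe set is meant.

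Motoneuron genes were read in every pool. All 7 measured markers of these cells reached the limit, with 5139, 4029 and 3520 for Mnx1 in right pools of embryos 1, 2 and 3 and 5219, 4160 and 3844 in left pools, their summed signal was 13962 to 18084 in right pools and 14209 to 18965 in left pools, and their median log2(R/L) was −0.05. Other cells were present to differing degrees. The summed signal of 11 mesenchyme and sclerotome markers was 15466 in the right pool of embryo 1, against 1982 to 2348 in the other right pools and 970.3 to 1940 in left pools. Most of that 15466 came from Col1a2 (8264) and Col3a1 (3349). All 7 tested markers averaged higher on the right. The sclerotome markers Pax1 and Pax9 were under the limit, at 41.9 and 10.4 in that pool, and Pax9 was lower on the right in each embryo. The right and left pools of embryo 1 held the highest or lowest signal for 42.9% and 41.0% of the tested probe sets. For embryo 2 these shares were 31.7% and 36.4%, and for embryo 3 they were 23.5% and 24.6%.

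No Slit, Robo or srGAP transcript was called different between the sides. Of the 17 member probe sets above the limit, the fold rule was met by 0, while 2.40% of all tested probe sets met it in favour of the right side and 1.55% in favour of the left. With limma, 0 passed an adjusted p of 0.05 (0 of all 21853 did) and 0 had an unadjusted p under 0.05, against 3.40% of all tested probe sets (1.92% higher on the right and 1.48% on the left). The mean log2(R/L) was above 0 in 11 and below 0 in 6 of the 17, from −0.46 (Slit3) to 0.22 (Robo1), and its median size was 0.095, beside 0.18 over all tested probe sets. The 3 right pools and the 3 left pools overlapped in each of the 17, and they did not overlap in 5.43% of all tested probe sets. Counts of 0 among 17 are near these small shares and do not set the members apart. A p that misses the threshold does not show equal levels. The 95% interval of the difference stayed within 1.5-fold in both directions for 9 of the 17 and reached beyond it for the others. An exact sign-flip test over 3 embryos has 0.25 as its smallest two-sided p.

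**Figure D1:**
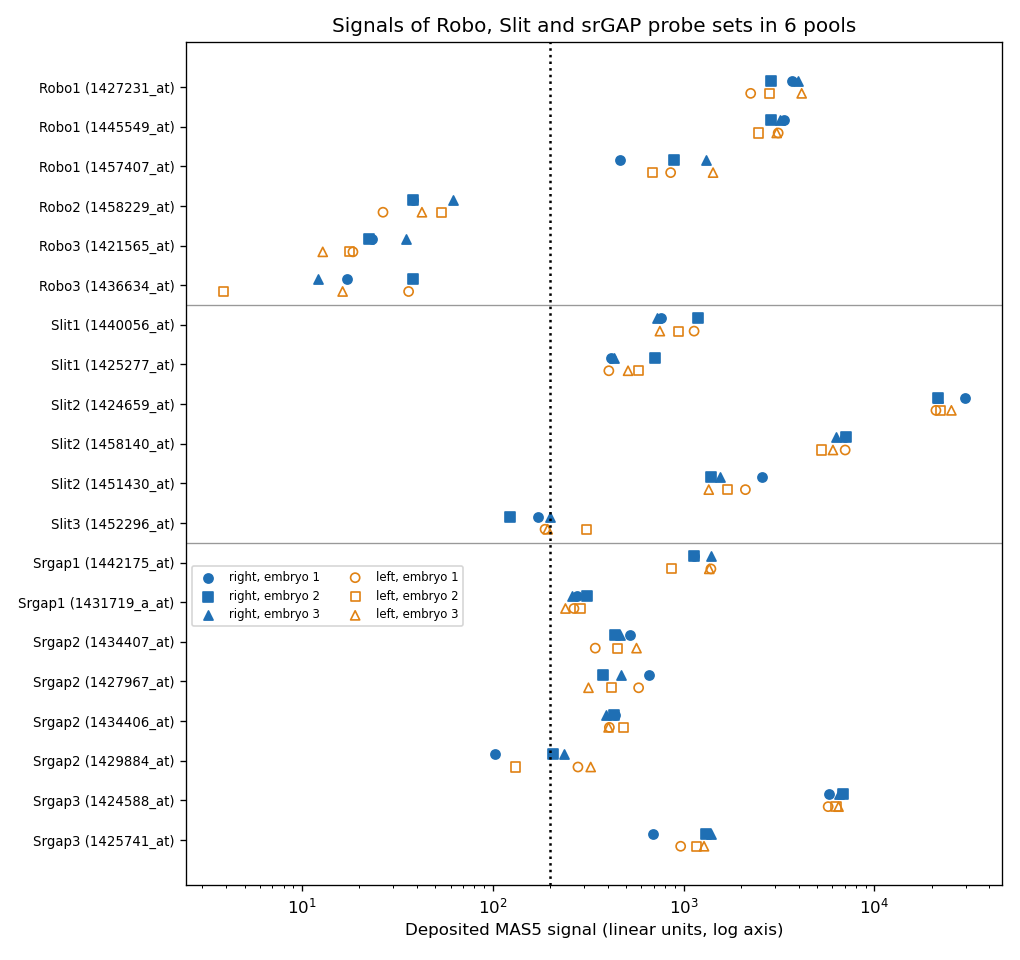
Deposited MAS5 signal (log axis) of the 20 probe sets of Robo, Slit and srGAP genes in the right pool (filled blue, upper row) and left pool (open orange, lower row) of embryos 1, 2 and 3 (circle, square, triangle). The dotted line is the limit of 200, and the 3 probe sets of Robo2 and Robo3 lie below it in all 6 pools.

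Robo1 is the receptor whose 3 probe sets were all above the limit. The brightest (1427231_at) read 3679, 2870 and 3955 in right pools of embryos 1, 2 and 3 and 2245, 2816 and 4155 in left pools. The left pool of embryo 1 was the lowest of the 6 and the left pool of embryo 3 the highest, so the sides overlapped over their whole range. Its log2(R/L) was 0.71, 0.03 and −0.07, with a mean of 0.22 ± 0.43 (SD, n = 3 embryos; 95% interval −0.18 to 0.63; limma adjusted p = 0.974). As fold changes of right over left, the interval ran between 0.88 and 1.55. Without embryo 1 the mean was −0.022.

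The second probe set of Robo1 (1445549_at) was the steadier one. It read 3345, 2876 and 3200 in right pools and 3129, 2465 and 3073 in left pools. The right pool was the higher one in 3 of 3 embryos, by a log2(R/L) of 0.10, 0.22 and 0.06. The mean was 0.13 ± 0.09 (SD, n = 3 embryos; 95% interval −0.19 to 0.44; limma adjusted p = 0.974). A shared sign in 3 embryos was seen for 3 of the 17 member probe sets and for 23.5% of all tested ones.

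The third (1457407_at) moved in another way than the first in embryo 1. It read 465.2, 894.5 and 1307 in right pools and 854.8, 684.1 and 1426 in left pools, so that its log2(R/L) was −0.88, 0.39 and −0.13 (mean −0.21 ± 0.64; 95% interval −0.79 to 0.38; limma adjusted p = 0.974). In the right pool of embryo 1 the 3 probe sets thus gave opposite answers, 0.71 and 0.10 above the left pool and 0.88 below it on the log2 scale. Their ratios lay within 0.36 of each other in embryo 2 and within 0.18 in embryo 3. Within 1 array, the log2 ratio of the third to the first probe set was −2.98, −1.68 and −1.60 in right pools and −1.39, −2.04 and −1.54 in left pools. A change in this ratio shows that both probe sets did not move alike, and which of them follows the Robo1 transcript was not tested.

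Robo2 shares with Robo1 the binding of all Slits, and the genes are neighbours on chromosome 16 (GRCm38.p6), with Robo1 at chr16:72027518-73047491 on the plus strand and Robo2 at chr16:73891976-75447443 on the minus strand, 844.5 kb apart. Its only probe set (1458229_at) read 38.3, 38.1 and 62.1 in right pools and 26.6, 54.0 and 42.5 in left pools. All 6 values lie under the limit of 200. The log2(R/L) was 0.53, −0.50 and 0.55 (mean 0.19 ± 0.60, SD, n = 3 embryos), with the right pool lower in embryo 2. Low signal of a single probe set gives no measure of whether the transcript was present.

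Robo3 is the divergent receptor of commissural neurons, which in mammals does not bind Slit with high affinity and counters repulsion before the axon crosses the midline. It lies on chromosome 9 next to Robo4, the receptor of endothelial cells, with 2.02 kb between them. The brighter of its probe sets (1421565_at) read 23.4, 22.5 and 34.9 in right pools and 18.5, 17.7 and 12.8 in left pools, and the other (1436634_at) read 17.1, 38.2 and 12.1 in right pools and 36.2, 3.86 and 16.3 in left pools. The right pools were above all left pools by the first and overlapped them by the second, whose log2(R/L) changed sign between embryos (−1.08, 3.31 and −0.43). At such signals, all under 40, a ratio has no reliable size, and with no filter limma gave an adjusted p of 0.971 for the brighter one. Of 9 commissural and dorsal interneuron markers 5 were under the limit, and the 9 summed to 2047 to 3510 in right pools and 1486 to 3227 in left pools. Robo4 itself read 157, 100.5 and 123 in right pools and 131, 114 and 146 in left pools, also under the limit.

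Among the ligands, the gene of Slit2 lies at chr5:47981291-48307735 on the plus strand (GRCm38.p6), and its introns hold Mir218-1, whereas Slit3 at chr11:35121456-35708507, also on the plus strand, holds Mir218-2. Both copies give the same miR-218-5p, a microRNA abundant in motoneurons, and they differ in the 3p arm. The microRNA itself was not measured here. The mature sequences are shown because the ligand genes carry them, with bases 2 to 8 (the seed) in capitals, 5′ to 3′, from RefSeq (GRCm38.p6):
mmu-miR-218-5p: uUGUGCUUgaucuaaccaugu
mmu-miR-218-1-3p: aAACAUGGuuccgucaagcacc
mmu-miR-218-2-3p: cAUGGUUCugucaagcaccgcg
The 5p arm is read from chr5:48223966-48223986 and from chr11:35616840-35616860, and the seeds of the 3p arms are not the same.

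The 3 Slit2 probe sets spanned 1.42-, 1.34- and 1.91-fold over the 6 pools, from the brightest to the dimmest. The brightest probe set (1424659_at) read 29788, 21464 and 21570 in right pools and 20999, 22242 and 25301 in left pools. The right pool of embryo 1 was the highest of the 6 and the left pool of the same embryo the lowest, a span of 1.42-fold. The log2(R/L) was 0.50, −0.05 and −0.23 (mean 0.07 ± 0.38, SD, n = 3 embryos; 95% interval −0.25 to 0.40; limma adjusted p = 0.978).

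The second probe set of Slit2 (1458140_at) read 6991, 7063 and 6309 in right pools and 7023, 5269 and 6060 in left pools, with a mean log2(R/L) of 0.16 ± 0.23 and a 95% interval of −0.15 to 0.46. The third (1451430_at) read 2589, 1388 and 1549 in right pools and 2107, 1692 and 1354 in left pools, with a mean of 0.07 ± 0.31 and an interval of −0.33 to 0.47. All 3 intervals for Slit2 lay within 1.5-fold in both directions. In each embryo the 3 probe sets disagreed in sign.

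Floor plate cells are the best known source of Slits, and some of their markers differed between pools of 1 embryo. Shh, a floor plate gene chosen after its values were seen, read 397, 480 and 284 in right pools and 1364, 4.81 and 263 in left pools. Spon1, another floor plate gene, read 400, 457 and 513 in right pools and 205, 224 and 441 in left pools and met the fold rule (mean log2(R/L) 0.74 ± 0.45, unadjusted p by limma 0.0289, adjusted p = 0.974). The summed signal of the 7 measured floor plate markers was 1092 to 1300 in right pools and 363 to 1772 in left pools, and 4 of the 7 were under the limit. The 3 tested ones averaged higher on the right, while Ferd3l, under the limit, was lower on the right in each embryo. Foxa2, also under it, read 45.7, 94.5 and 77.2 in right pools and 51.4, 7.08 and 84.5 in left pools. It thus did not share the high Shh value of the left pool of embryo 1. The part of floor plate cells in the Slit2 signals given above was not tested.

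Slit1, which is made mostly in the nervous system, was read by 2 probe sets. The brighter (1440056_at) read 760, 1190 and 723 in right pools and 1134, 944 and 751 in left pools, with a log2(R/L) of −0.58, 0.33 and −0.05 (mean −0.10 ± 0.46, SD, n = 3 embryos; 95% interval −0.61 to 0.41; limma adjusted p = 0.981). The other (1425277_at) read 418, 706 and 433 in right pools and 405, 580 and 511 in left pools (mean 0.03 ± 0.26; interval −0.50 to 0.56). Both were highest in the right pool of embryo 2, and they agreed in sign in embryos 2 and 3.

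Slit3, the ligand known from mesenchyme, vessels and the central tendon of the diaphragm, was close to the limit. Its probe set (1452296_at) read 173, 124 and 200.1 in right pools and 188, 308 and 194 in left pools, and passed the limit through the left pool of embryo 2 and, barely, the right pool of embryo 3. The left pool of embryo 2 was the highest and the right pool of that embryo the lowest, which gave a log2(R/L) of −0.12, −1.32 and 0.05 (mean −0.46 ± 0.75, SD, n = 3 embryos; 95% interval −1.40 to 0.47; limma adjusted p = 0.974). This is the widest difference on average among the 17, and without embryo 2 it was −0.035. Mesenchyme markers summed to 15466, 2348 and 1982 in right pools of embryos 1, 2 and 3 and 1871, 970.3 and 1940 in left pools, and their part in the Slit3 signal was not tested.

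**Figure D2:**
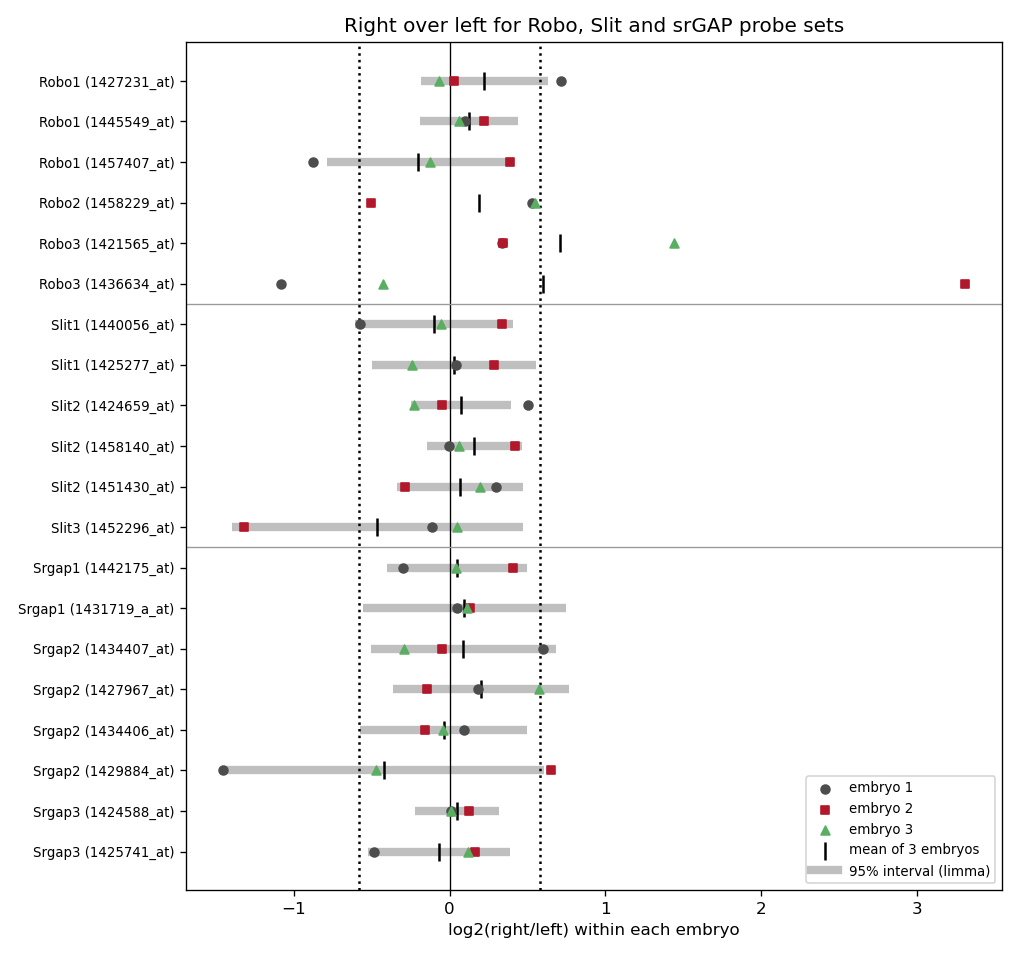
log2(R/L) of each probe set in embryos 1, 2 and 3 (circle, square, triangle), their mean (black bar) and the 95% interval from limma (grey, 17 tested probe sets only), with dotted lines at −0.58 and 0.58. The intervals of all 17 cover 0, and the widest scatter is that of Robo3, whose signals are under 40.

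srGAP proteins bind the cytoplasmic part of Robo and bend membranes through an inverse F-BAR domain. Srgap3 gave the probe set that varied least among the members. This one (1424588_at) read 5755, 6836 and 6523 in right pools and 5719, 6282 and 6483 in left pools, a span of 1.20-fold over the 6. The right pool was the higher one in 3 of 3 embryos, by 0.01, 0.12 and 0.01 on the log2 scale, and the mean was 0.05 ± 0.07 (SD, n = 3 embryos; 95% interval −0.22 to 0.32; limma adjusted p = 0.983). As fold changes, the interval ran between 0.86 and 1.25.

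The other probe set of Srgap3 (1425741_at) read 690, 1304 and 1386 in right pools and 965, 1165 and 1279 in left pools, with both pools of embryo 1 lowest (mean log2(R/L) −0.07 ± 0.36, SD, n = 3 embryos; 95% interval −0.52 to 0.39). Srgap1 read 1127, 1138 and 1399 in right pools and 1389, 860 and 1362 in left pools by its brighter probe set (1442175_at), with a mean log2(R/L) of 0.05 ± 0.35 and an interval of −0.40 to 0.49. Its dimmer one (1431719_a_at) read 275, 313 and 259 in right pools and 266, 286 and 240.2 in left pools, and had the smallest spread of ratios among the members (0.05, 0.13 and 0.11; mean 0.09 ± 0.04). That spread is small by itself, but limma, which sets it beside probe sets of like signal, gave an interval of −0.56 to 0.75 and an adjusted p of 0.987.

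Srgap2 was read by 4 probe sets, which did not move together. The brightest (1434407_at) read 522, 437 and 462 in right pools and 344, 451 and 566 in left pools (mean log2(R/L) 0.09 ± 0.46). The steadiest (1434406_at) read 434, 433 and 392 in right pools and 408, 484 and 404 in left pools (mean −0.04 ± 0.13). Another (1427967_at) read 658, 377 and 472 in right pools and 581, 418 and 317 in left pools (mean 0.20 ± 0.36). The dimmest (1429884_at) averaged −0.42, at 102, 208 and 235 in right pools and 279, 132 and 326 in left pools, whose ratios in embryos 1, 2 and 3 were −1.45, 0.65 and −0.47. Over the 4 probe sets the mean was −0.043.

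As groups, with each gene read by its brightest probe set, the median log2(R/L) of the 3 Slits was −0.12, −0.05 and −0.05 in embryos 1, 2 and 3, and that of the 3 srGAPs was 0.01, 0.12 and 0.01. The Slit medians are values of different genes, Slit3, Slit2 and Slit1 in turn. In embryo 1 that is Slit3 at 173 and 188, under the limit. The Slits ran from −0.58 to 0.50 in embryo 1, from −1.32 to 0.33 in embryo 2 and from −0.23 to 0.05 in embryo 3. The srGAP median is the value of Srgap3 in each embryo. Srgap1 was at −0.30, 0.40 and 0.04 and Srgap2 at 0.60, −0.05 and −0.29, so the srGAPs did not move together. For the Robos only Robo1 was above the limit, at 0.71, 0.03 and −0.07. In embryos 2 and 3 the brightest probe sets of Robo1 and Slit2 lay within 0.23 of 0. In embryo 1 both were higher on the right, by 0.71 and 0.50. These are single values per embryo, and a difference between receptor and ligands was not tested.

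The range of the 3 embryo means was larger than the size of the mean log2(R/L) for 16 of the 17 probe sets and for 83.6% of all tested ones. A range of 3 values and the size of 1 mean are unlike measures, so these counts do not show that embryos differed more than sides. The range of the embryo means had a median of 0.48 on the log2 scale over the 17, beside 0.49 over all tested probe sets. In the test of the embryo term by limma, 0 of the 17 passed an adjusted p of 0.05, as did 0.270% of all tested probe sets, and 3 had an unadjusted p under 0.05, where 15.3% of all tested probe sets had one, so the members were near the background. The 3 were the dimmest probe sets of Robo1 (1457407_at, embryo range 1.11 on the log2 scale, limma adjusted p = 0.223), Slit2 (1451430_at, range 0.69, adjusted p = 0.247) and Srgap3 (1425741_at, range 0.71, adjusted p = 0.301). For Robo1, embryo 3 was the high one, with 1307 on the right and 1426 on the left, and this was the 1 member to pass the adjusted threshold in any alternative, when embryo 2 was left out (limma adjusted p = 0.0239, with up to 0.916 elsewhere). For Slit2 embryo 1 was the high one, and for Srgap3 the low one.

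**Figure D3:**
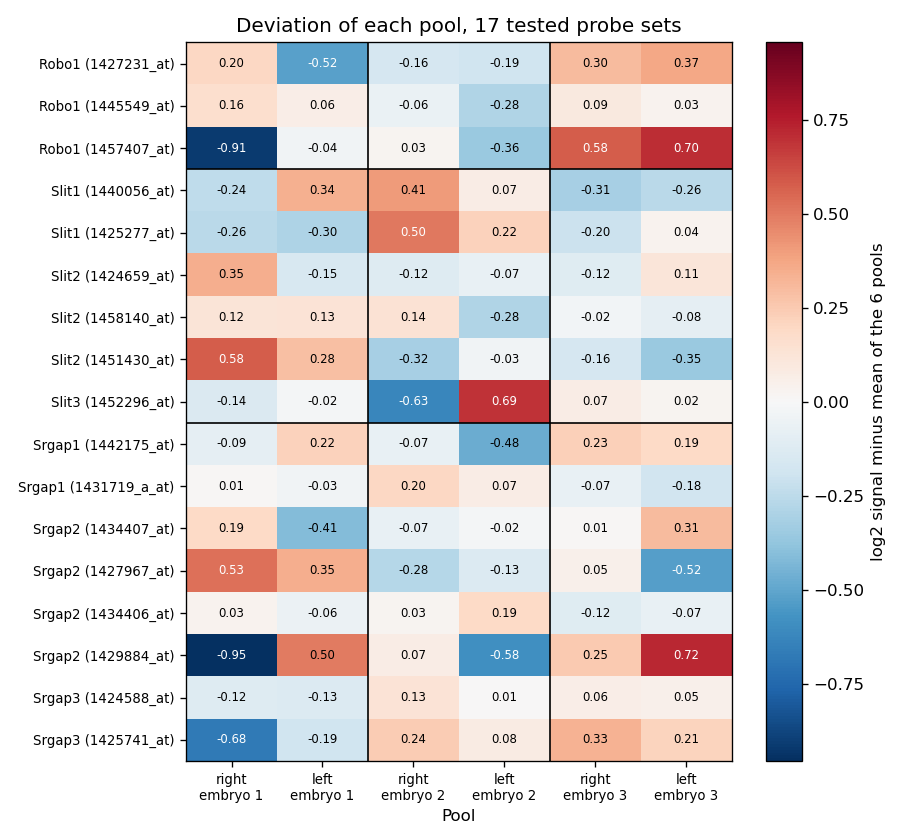
Deviation of each pool from the mean log2 signal of its probe set, for the 17 tested probe sets and 6 pools, right before left within each embryo (red higher, blue lower). The largest deviations, −0.95 and −0.91, belong to the dimmest probe sets of Srgap2 and Robo1 in the right pool of embryo 1, and the brighter probe set of Srgap3 stays between −0.13 and 0.13.

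The genes whose pattern over the 6 pools was most like that of a member were found by the root mean square difference of log2 signals after each profile had been centred. For Robo1 they were Sdk2 (0.0441), Dvl2 (0.0604) and Fgd1 (0.0659) among 10538 genes. For Slit3 they were Perp (0.0927), Tmem209 (0.0978) and Ero1b (0.0996). For the low signals of Robo2 the nearest was Abhd18 (0.0771), and for those of Robo3 it was R3hcc1l (0.168). A likeness over 6 pools is a description and says nothing of shared function or control.

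Beyond the 9 genes, 45 genes of the pathway were read from a list. Of these, 42 had a probe set of their own and 40 were above the limit. By limma 0 passed an adjusted p of 0.05 and 1 had an unadjusted p under 0.05, where 3.40% of all tested probe sets had one. A count of 1 among 40 is near that share and does not set the list apart. The fold rule was met by 0 (3.94% of all tested probe sets met it in either direction), and the median size of the mean log2(R/L) was 0.097. The 1 gene was Ntn1, the midline attractant netrin-1, whose receptor Dcc can be silenced by Robo1. Ntn1 read 386, 459 and 497 in right pools and 110.1, 321 and 388 in left pools, with a log2(R/L) of 1.81, 0.52 and 0.36 (unadjusted p = 0.0289 by limma, adjusted p = 0.974). It is made by the floor plate and ventral progenitors, whose markers are given above and below, and their part in its signal was not tested. Dcc, chosen after its values were seen, read 6600, 5965 and 7101 in right pools and 6726, 5907 and 7452 in left pools, with a mean of −0.03 ± 0.04 (SD, n = 3 embryos).

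Among 11 tested co-receptors and other ligands, 6 averaged above 0 and 5 below. Gpc1 (glypican-1), a heparan sulfate proteoglycan that binds Slit2, read 1746, 1575 and 1422 in right pools and 1289, 1361 and 1401 in left pools (mean 0.22 ± 0.21). The syndecan Sdc2, another heparan sulfate proteoglycan, was the one with a lower right pool in 3 of 3 embryos (mean −0.28 ± 0.12, limma adjusted p = 0.974), at signals of 145 to 201. Of the 19 tested intracellular effectors, 13 averaged above 0 and 6 below, from −0.22 to 0.39. Those are the values of Cdc42, a GTPase on which srGAPs act, at 8425, 7435 and 8231 in right pools and 10309, 8619 and 9236 in left pools, and of the adenylyl cyclase-associated protein Cap2, at signals of 70.1 to 236. Cdc42 was lower on the right in 3 of 3 embryos (−0.29, −0.21 and −0.17; limma adjusted p = 0.974). Cap1 followed with a mean of −0.10 ± 0.12 and Abl2, a tyrosine kinase of the family that phosphorylates Robo, with 0.09 ± 0.06.

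Of 10 tested genes for trafficking, turnover and processing of Robo, 0 had the same sign in all 3 embryos by their brightest probe set. Among all tested probe sets 23.5% had one sign. Other probe sets of these 10 genes were not read. The lowest mean was −0.37 for Usp33, a deubiquitinase that acts on Robo1 (chosen after its values were seen), at 839, 726 and 823 in right pools and 1289, 1053 and 805 in left pools. Adam10, the metalloprotease whose fly counterpart cuts Robo, was chosen after its values were seen. It read 5353, 5251 and 5259 in right pools and 4950, 5314 and 5170 in left pools.

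**Figure D4:**
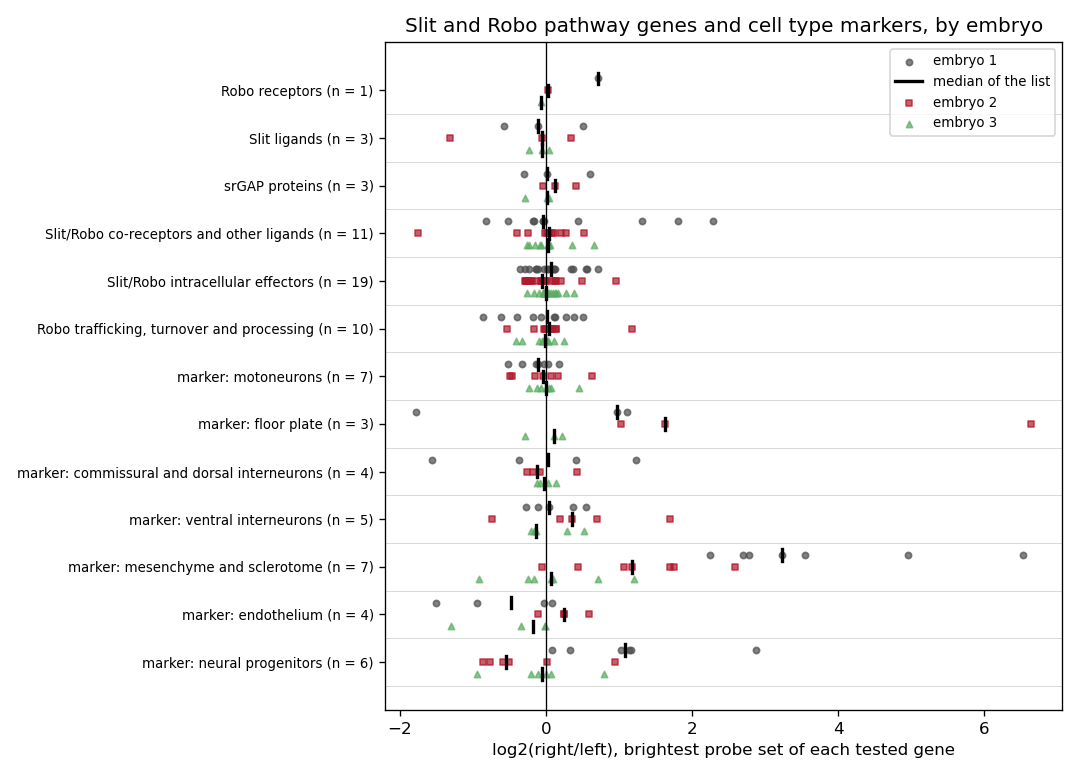
log2(R/L) in embryos 1, 2 and 3 (circle, square, triangle) for each tested gene of the pathway lists and of the cell type markers, by its brightest probe set, with the median of each list as a black bar. The pathway lists lie around 0, and mesenchyme markers reach a median of 3.23 in embryo 1 and of 0.06 in embryo 3.

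Mesenchyme and neural progenitor markers were higher in the right than in the left pool of embryo 1 by median. By summed signal of progenitor markers it was the left pool of this embryo that stood apart. Their summed signal was 4459 there, against 7696 and 8440 in left pools of embryos 2 and 3. In right pools it was 7582, 6877 and 7974. Single progenitor markers differed from the sum. Sox2 (193 right, 26.3 left) and Nes (2570 and 2056) were lower in both pools of embryo 1 than in any other pool. Mki67 was at its highest, 3480, in the right pool of embryo 1. Not all 8 markers were low in both pools. The 7 tested mesenchyme and sclerotome markers had a median log2(R/L) of 3.23, 1.17 and 0.06 in embryos 1, 2 and 3, and 6 neural progenitor markers had 1.08, −0.55 and −0.05. Col1a2 and Meox2 (mesenchyme) and Pax6 (progenitors) met the fold rule. Meox2 passed the limit only through the right pool of embryo 1, at 347, and read 4.14 to 32.7 in the others. Its ratios therefore have no reliable size (unadjusted p by limma 0.363). The mesenchyme genes Col3a1 and Dcn had an unadjusted p under 0.05 without one sign in the 3 embryos (mean log2(R/L) 1.17 and 2.99), and Lum had one sign (mean 1.09). For Dcn the left pool of embryo 1 read only 5.73, which gave a log2(R/L) of 6.54 in that embryo. One sign in 3 embryos was also seen for Isl2 (−0.22), Mnx1 (−0.07) and Lhx3 (0.09) among motoneuron markers. The same held for Cntn2 (0.32) and Lbx1 (−0.24) among commissural and dorsal markers and for Kdr (−0.16) among endothelial ones. Commissural and dorsal markers had a median of 0.02, −0.13 and −0.03 in embryos 1, 2 and 3, and ventral interneuron markers 0.04, 0.36 and −0.14. The 4 tested endothelial markers had −0.49, 0.25 and −0.18. Embryo 1, in which the first probe sets of Robo1 and Slit2 were higher on the right, is also the embryo with the largest median for mesenchyme and progenitor markers, and their part in those ratios was not tested.

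RefSeq promoter windows (250 bases before to 50 after a start, GRCm38.p6) were found for 8 of the 9 genes, in 10 windows. The motif TATAAA was searched on both strands. It was found in 2 of the 10 windows and in 13.6% of 32851 windows of the same length. The 2 belong to Slit2 and Srgap3, and 30 bases around the motif are shown to give its place, 5′ to 3′, motif in capitals:
Slit2: ctccggctgctaTATAAAgaccggcggccg
Srgap3: tgtgtcagttgtTATAAAatccgggaggcg
The Slit2 stretch lies at chr5:47983115-47983144 on the plus strand and begins its motif 28 bases before the start around which its window was set. That of Srgap3 lies at chr6:112947321-112947350 on the minus strand, with its motif 72 bases before. The start around which a window was set is not the outer end of the gene. Both stretches lie inside the span of their gene, which begins at chr5:47981291 for Slit2 and, on the minus strand, at chr6:112947505 for Srgap3. A match of letters is a description and not a binding site.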

How the data were processed

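The authors computed the deposited signal of each probe set with MAS5 in Expression Console (Affymetrix; the sources used here name no version) from amplified and biotin-labelled RNA of 6 pools (RNA integrity above the limit of the methods), 1 array per pool. After leaving out 64 controls of 45101 probe sets, signals were taken to log2 with no constant added and no further scaling. Of the rest, 34945 are annotated to 1 gene, and only these were named. The table holds no detection calls, so the filter of the methods on present calls was not applied. Arrays are limited in precision by their number.

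limma 3.58.1 in R 4.3.3 was fitted over the 21853 probe sets that reached 200, with embryo and side as terms, variances with a trend, and Benjamini-Hochberg adjustment (threshold 0.05). The pools of an embryo come from the same animal and sections. After subtraction of side means, those of embryos 1, 2 and 3 correlated at 0.241, 0.215 and 0.495. The code was checked on simulated data. Figures and sequences were made with Python 3.11.15.

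The brightest probe set (highest mean log2 signal) stands for a gene in lists. Named from the lists were genes that met the fold rule, had an unadjusted p under 0.05, or had the largest mean ratio among those of 1 sign in 3 embryos (up to 4 a list). Robo4, Dcc, Usp33, Adam10 and Shh fall outside this rule and were chosen after their values were seen. The same holds for the markers Foxa2, Ferd3l, Pax1, Pax9, Sox2, Nes and Mki67. Genes of like pattern were sought for Robo1 and the 3 members of widest range. The members and lists were chosen with earlier results of these data known. The alternatives changed the scaling (quantile or median), the constant before log2 (50), the limit (none or 500), the embryos (each left out), the replicate block (none), the variance model (no trend) and the value of a gene (mean over its probe sets).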

Additional observations from a re-analysis of the deposited data

How the results depend on the processing

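Over the 9 alternatives run on the mean log2(R/L) of the 9 genes, 71 of 81 values kept their direction and 10 reversed, all of them small and uncalled in both settings. Part of the 71 could not move. Dropping the replicate block or the variance trend leaves this mean as it is for every gene. The mean over all probe sets does so for Robo2 and Slit3, with 1 probe set each. The 71 are thus no measure of robustness. With embryos left out in turn, the mean ranged from −0.022 to 0.37 for Robo1, from −0.32 to 0.14 for Slit1, from −0.14 to 0.23 for Slit2, from −0.13 to 0.22 for Srgap1 and from −0.17 to 0.28 for Srgap2. Median scaling gave −0.012 for Slit2, −0.039 for Srgap1 and −0.040 for Srgap3, and the mean over all probe sets −0.043 for Srgap2 and −0.011 for Srgap3. The cause was not tested.

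In every alternative 0 member probe sets met the fold rule or passed an adjusted p of 0.05 between sides with limma, also with no replicate block (0 over all tested probe sets). For embryo, 0 to 1 passed with embryos left out. Over all tested probe sets limma called 0 to 1 between sides with embryos left out. The fold rule gave 333 on the right and 197 on the left with 50 added, 2805 and 1696 with no limit, 131 and 104 with a limit of 500, and 200 to 1070 and 176 to 642 with embryos left out. The embryo term gave 249 with median scaling, 165 with 50 added, 14 with no limit, 0 without a trend and 5 to 846 with embryos left out.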

Other observations

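In the right pool of embryo 1, the dimmer probe sets of 3 genes held their lowest signal of the 6 pools. These were 1457407_at of Robo1 (0.91 below its mean over the pools on the log2 scale), 1429884_at of Srgap2 (0.95 below) and 1425741_at of Srgap3 (0.68 below). In this pool 20.8% of all tested probe sets held their lowest signal, as did 3 of the 17 members. Other dimmer probe sets went the other way there. The dimmest of Slit2 (1451430_at) lay 0.58 above its mean and 1427967_at of Srgap2 0.53 above, each at its highest, and 1431719_a_at of Srgap1 lay 0.01 above. In the same pool the brightest probe sets of Robo1, Srgap2 and Srgap3 deviated by 0.20, 0.19 and −0.12. The pattern was noticed after the values were seen, and no cause was tested.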
